A study of Mus musculus with 2 samples.

Results

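The potassium channel genes of the mouse genome, with the accessory subunits that share their naming scheme, were followed through the open chromatin of the spleen. Members were all protein-coding genes of the mm10 annotation whose symbol starts with Kcn and a further letter, which gave 94 genes of 21938. Chromatin was profiled by DNase-seq in whole spleens of 2 male mice aged 2 months, both B6CASTF1/J, which are F1 hybrids of CAST/EiJ and C57BL/6J. The enzyme DNase I cuts DNA where chromatin is open, and sites with a high density of cuts are deposited as peaks. The labels name a separate animal for each library, called animal 1 and animal 2 here after their biological replicate numbers. There was 1 group and no second condition, so all values are descriptions of these animals, and a mean ± SD has n = 2.

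Potassium channels let potassium leave or enter the cell along its gradient and so set the membrane potential. In neurons and heart muscle they end action potentials and fix the resting potential. Lymphocytes do not fire action potentials, but they too need potassium outflow, because a negative membrane potential drives calcium in through the store-operated channels that open after antigen receptor signalling. The voltage-gated channel of Kcna3 and the calcium-activated channel of Kcnn4 are the main potassium channels known in lymphocytes, and Kcnk5 encodes an acid-sensitive background channel that T cells also use.

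The longer of the deposited lists had 79246 peaks for animal 1 and 77231 for animal 2, with a median height of 0.888 and 1.05. The height is the authors' signal for the density of cuts in a peak, and no source states its unit. All heights of a library were whole multiples of its smallest step, to a tolerance of 0.05 steps. If a step is 1 cut scaled to depth, as in CPM, the libraries would hold 139.6 and 147.3 M cuts. The tissue label was set against marker genes. Promoter peaks were present at 8 of 8 B cell markers and 7 of 8 T cell markers in each animal, with Cd4 as the exception, and the median heights were 7.16 and 1.69. Of the red pulp macrophage markers 5 of 6 and 4 of 6 had one, Adgre1 in neither animal, and of the erythroid markers 1 of 6 and 2 of 6, with Hba-a1, Hbb-bs, Gata1 and Epb42 in neither. Neuron markers had a peak at 7 of 8 and 6 of 8 promoters with a median height of 1.12, and Syt1 had none. Cardiomyocyte markers had one at 4 of 8 and 3 of 8, with a median of 1.04, and Myh6, Tnnt2, Nppa and Pln had none. In whole tissue, fewer cells of a type and less accessible chromatin per cell cannot be told apart.

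A promoter was taken as the bases within 1 kb of any transcription start site (TSS) in the annotation, on either side, and a gene with a peak there is called open. Potassium channel genes were open less often than genes in general. In animal 1, 42 of 94 members had a promoter peak, or 44.7%, against 61.4% of all protein-coding genes. In animal 2 the count was 49, or 52.1%, against 62.6%. In both animals 39 members were open, or 41.5%, against 59.8%, and 42 members were open in neither. Exactly 13 members were open in 1 animal only, 3 of them in animal 1 and 10 in animal 2, where 4.42% of all genes fell in this class.

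Where members were open, their peaks were low. Over the 39 members open in both animals, the median of the mean height was 1.57, against 6.42 over all genes open in both, and the members ranged from 0.218 to 24.2. Only 3 of the 94 members reached the all-gene median, Kcnab2 and Kcnab3 among them, where 29.9% of all genes did. The strongest peak was under 1 in height for 38.1% of the open members of animal 1 and 44.9% of those of animal 2, against 15.4% and 14.5% of all open genes. Its midpoint lay within 200 bp of a TSS for 64.3% and 65.3% of open members, against 81.7% and 81.3%. A peak shared with the promoter of another protein-coding gene is common in the genome, at 20.1% and 19.8% of open genes, but among the members only Kcnab2 had one.

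**Figure D1:**
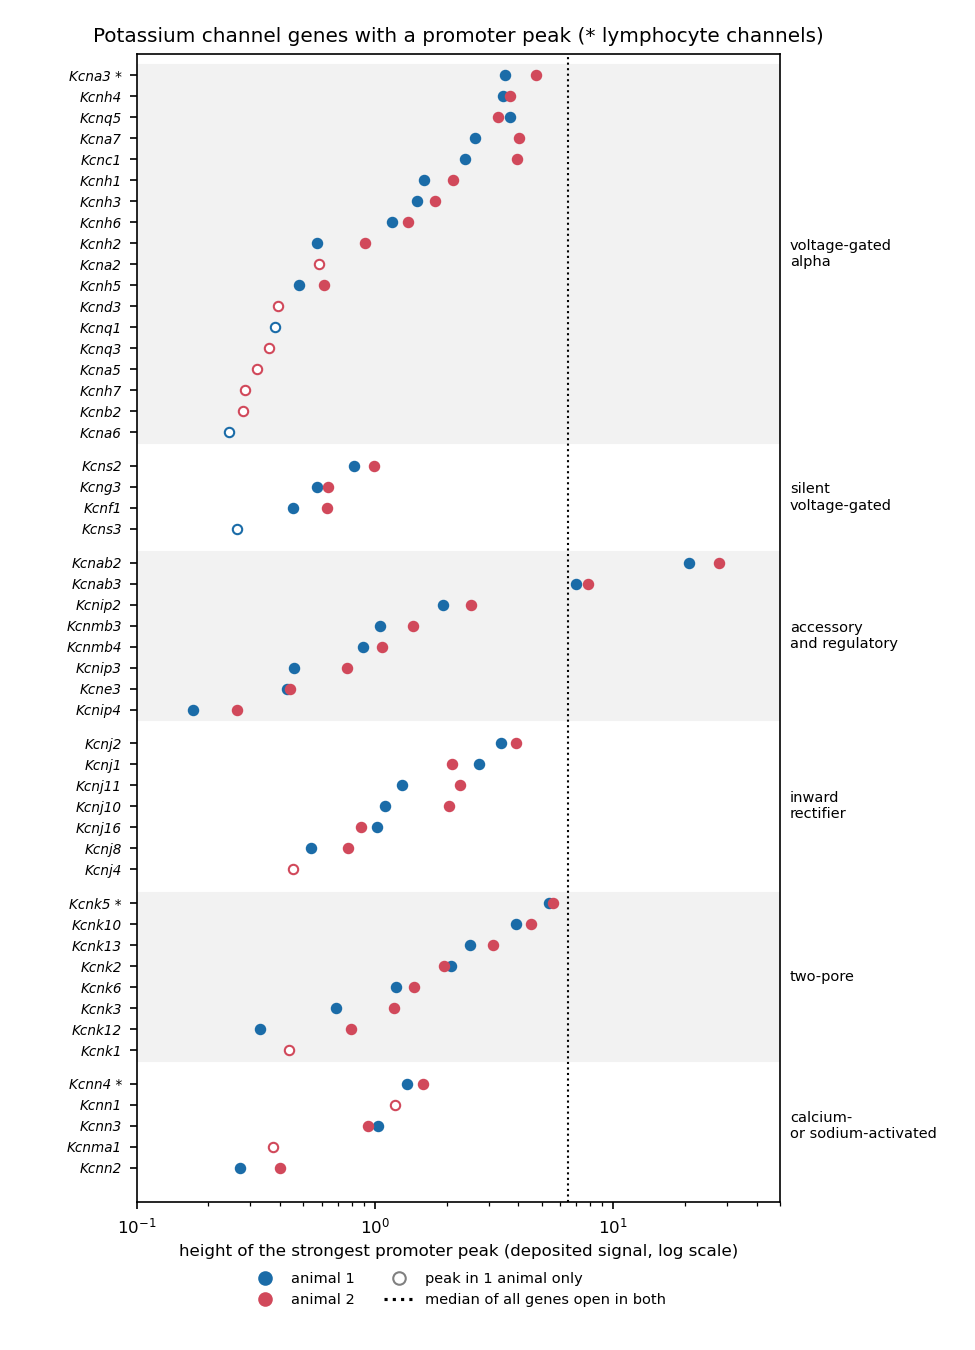
Height of the strongest promoter peak (deposited signal, log axis) of potassium channel genes that were open in at least 1 animal, grouped by channel family, with blue points for animal 1, red points for animal 2, open circles where only 1 animal had a peak, and asterisks at the lymphocyte channels. The dotted line is the median of all genes open in both animals, 6.42, and of the genes shown only Kcnab2 and Kcnab3 lie to its right in both animals.

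All 3 lymphocyte channel genes were open in both animals, Kcna3 and Kcnk5 with peaks at the start site and Kcnn4 with a lower peak upstream of it. The upstream part of each promoter peak is printed here so that the bases occupied in both spleens can be seen. It was taken from the joined span of the peaks of both animals. Footprints are short stretches inside open chromatin that are protected from cutting, as a bound protein would leave them. The sequences are those of the C57BL/6J reference (GRCm38.p6, the sequence of mm10), 5′ to 3′ on the strand of the gene. Capitals mark bases inside deposited footprints of both animals. Kcna3 lies at chr3:107036001-107036168 on the plus strand and Kcnk5 at chr14:20181810-20181940 on the minus strand, each ending at the base before the first TSS. Kcnn4 lies at chr7:24369821-24370120 on the plus strand and ends 143 bp before the first TSS. For Kcnn4 this is the part nearest the TSS of a joined span of chr7:24369721-24370120. The peak of animal 1 ended at base 24370000, so the last part printed was in the peak of animal 2 only.
Kcna3: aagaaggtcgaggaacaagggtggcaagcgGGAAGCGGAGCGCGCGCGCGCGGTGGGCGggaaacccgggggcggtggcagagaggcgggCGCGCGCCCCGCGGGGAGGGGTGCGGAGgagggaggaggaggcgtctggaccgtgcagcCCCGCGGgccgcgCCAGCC
Kcnn4: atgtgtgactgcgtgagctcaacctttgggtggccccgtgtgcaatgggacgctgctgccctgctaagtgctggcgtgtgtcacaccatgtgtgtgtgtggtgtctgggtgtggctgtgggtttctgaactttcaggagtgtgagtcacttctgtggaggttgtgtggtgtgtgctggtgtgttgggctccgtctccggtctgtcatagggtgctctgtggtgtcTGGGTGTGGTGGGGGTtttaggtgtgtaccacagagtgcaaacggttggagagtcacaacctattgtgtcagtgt
Kcnk5: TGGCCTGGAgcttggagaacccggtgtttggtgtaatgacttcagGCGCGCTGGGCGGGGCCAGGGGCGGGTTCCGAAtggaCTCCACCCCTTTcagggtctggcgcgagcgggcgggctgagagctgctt

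Kcna3 (ENSMUSG00000047959.4, chr3:107036169-107038070, plus strand) had a promoter peak of height 3.50 in animal 1, and its height was 4.73 in animal 2, which gives 4.12 ± 0.869 (SD, n = 2). The peak centred 58 and 68 bp upstream of its single TSS. On the same reading of the step, these are 489 and 697 cuts, with exact Poisson 95% intervals of 3.20 to 3.83 and 4.39 to 5.10 for counting error only. The intervals of the animals do not overlap, but heights were higher in animal 2 for 85.4% of all genes open in both. The log2 ratio of animal 2 to animal 1 was 0.43 at Kcna3, against a median of 0.27 (SD 0.29) over all such genes. A higher peak was found at 64.8% and 60.8% of open genes. The peak held 5 and 4 footprints, and 70 of the 168 bases printed were in footprints of both animals, in a stretch with 78.0% GC and 25 CpG pairs. A second, wide peak lay in the gene body at chr3:107036521-107037120 with a height of 0.946 in animal 1, and at nearly the same place with 1.15 in animal 2.

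Kcnk5 (ENSMUSG00000023243.9, chr14:20140057-20181809, minus strand) had the highest promoter peak of the 3, with 5.36 in animal 1 and 5.60 in animal 2, or 5.48 ± 0.172. It covered the same bases, chr14:20181761-20181940, in both animals and centred 42 bp upstream of the first TSS. The Poisson intervals, 4.98 to 5.76 and 5.23 to 6.00, overlap, and 51.7% and 55.9% of open genes had a higher peak. The upstream stretch shows 54 bases in footprints of both animals, and the GC box GGGCGGGG, the letters bound by SP factors, lies at bases 53 to 60 with all 8 letters in capitals.

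Kcnn4 (ENSMUSG00000054342.8, chr7:24370263-24386690, plus strand) had the lowest, with 1.36 in animal 1 and 1.60 in animal 2, or 1.48 ± 0.166. Its Poisson intervals were 1.17 to 1.57 and 1.40 to 1.81. The peak was not at the start site but centred 382 and 342 bp upstream, and the smaller peak at the TSS had heights of 0.824 and 0.781. A higher promoter peak was found at 80.8% of open genes in animal 1 and 79.9% in animal 2. Both animals had 3 footprints in the stronger peak. Of the 300 bases printed, 16 were in footprints of both, and these lay past the end of the stronger peak of animal 1. Those 16 bases hold a GGGTGTGG, the letters bound by KLF factors, at positions 227 to 234. A further GGGTGTGG at positions 107 to 114 and an AP-1 match, TGAGTCA at positions 142 to 148, were outside them.

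The surroundings of these genes also differed. Distal peaks were counted up to 50 kb from the most 5′ TSS and more than 1 kb from it. Kcna3 had 11 in animal 1 and 6 in animal 2, none at the promoter of another gene, and the strongest was 2.45 in animal 1, at chr3:107038161-107038400, just past the end of the gene. In animal 2 the same position had 0.998, and the strongest was 1.36 at chr3:107038781-107038940. Kcnn4 had 14 and 11, of which 7 and 5 lay within the gene. Several of these were higher than its promoter peak: 3.47 and 5.32 about 5.3 kb upstream, at chr7:24364901-24365060 in animal 2, and 3.32 and 3.69 in the gene, at chr7:24373661-24373920 in animal 1. The highest peak within 50 kb of Kcnn4, 13.8 and 15.6, was at the promoter of the neighbour Smg9. Kcnk5 had 5 and 4 distal peaks, the strongest in the gene at chr14:20168121-20168360 with 1.88 in animal 1 and at the same centre with 1.66 in animal 2. Proximity does not assign a distal peak to a gene.

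**Figure D2:**
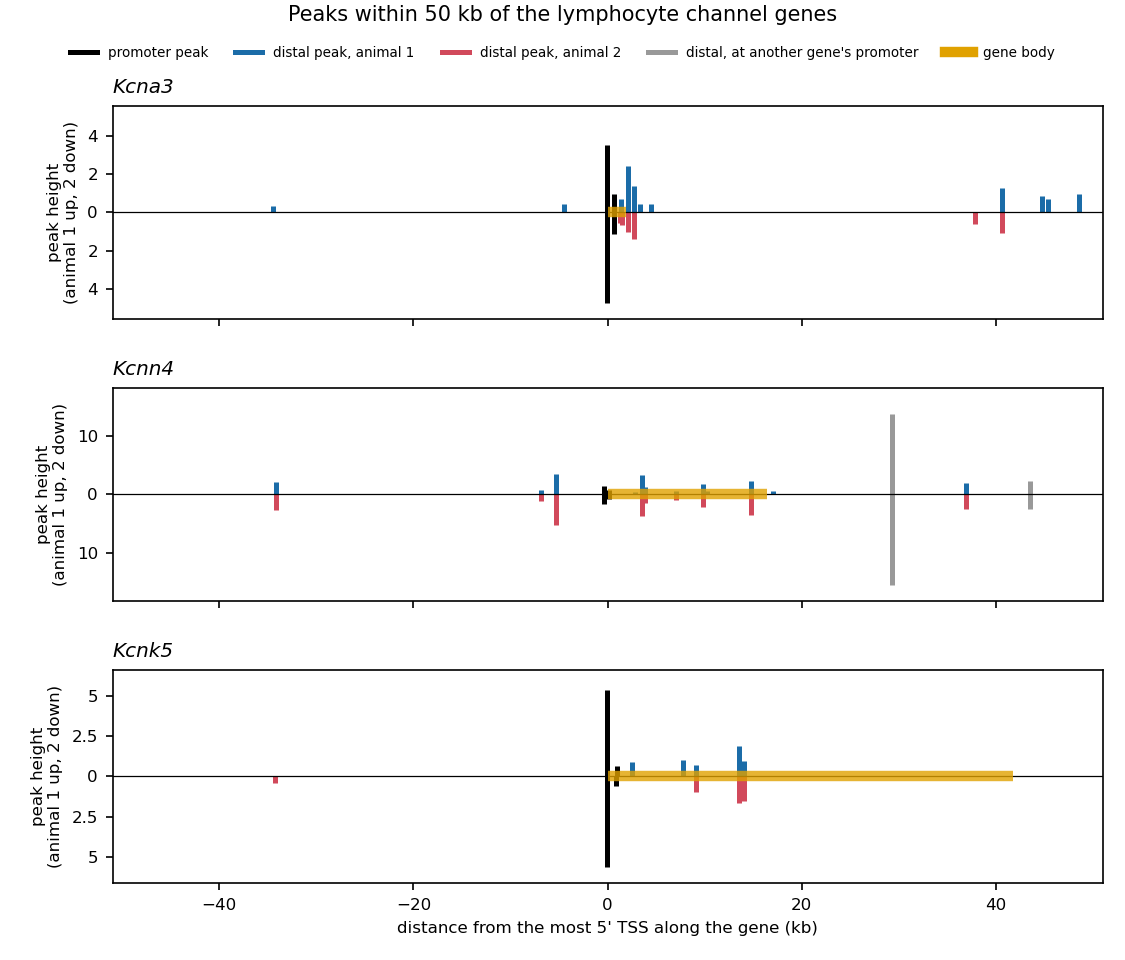
Peaks within 50 kb of the most 5′ TSS of Kcna3, Kcnn4 and Kcnk5, with the distance along the gene in kb on the horizontal axis and the peak height on the vertical axis, animal 1 upward and animal 2 downward. Black bars are promoter peaks, coloured bars distal peaks, grey bars distal peaks at another gene's promoter, and yellow the gene body; Kcna3 and Kcnk5 have their highest peak at the start, while Kcnn4 has higher peaks at a distance.

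Among the voltage-gated alpha subunits, which form the pore of channels opened by depolarisation, 14 of 30 were open in animal 1, 18 in animal 2 and 12 in both, with a median mean height of 3.24. Kcnh4 had 3.44 and 3.68, or 3.56 ± 0.171, and Kcna7 had 2.62 and 4.03, or 3.32 ± 0.993. Kcnc1, a fast channel of rapidly firing neurons, had 2.39 and 3.93, or 3.16 ± 1.09. For Kcnq5, a slow channel of the M-current type, the strongest peak differed between animals, 3.68 in animal 1 with its midpoint 990 bp from a TSS and 3.27 in animal 2 at 80 bp. Others open in both were Kcnh1, Kcnh2, Kcnh3, Kcnh5 and Kcnh6 of the ether-a-go-go type, with means from 0.545 to 1.87.

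Silent subunits form no channel on their own and modify other voltage-gated subunits. In animal 1, 4 of 10 were open, or 40.0%, against 37.5% of the channels activated by calcium or sodium. In both animals 3 were open, or 30.0%, the lowest share of the families, against 41.5% of all members and 59.8% of all genes. These were Kcns2 with 0.817 and 0.991, Kcng3 with 0.573 and 0.638 and Kcnf1 with 0.451 and 0.631. Each was higher in animal 2, and each of the peaks lay over an exon.

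Accessory subunits held both the highest and the lowest member, and 8 of 17 were open in both animals with a median of 1.11. Kcnab2 encodes a cytoplasmic beta subunit of the Kcna channels, and its promoter peak of 20.7 and 27.7, or 24.2 ± 4.96, ranked 83 among the 13116 genes open in both. The peak at chr4:152477461-152477700 also overlapped the promoter of Nphp4, so the height belongs to both genes. A peak at an internal start of Kcnab2 that no other gene shared had 3.12 and 3.69. Kcnab3, a further beta subunit, had 6.97 and 7.85, or 7.41 ± 0.622, at a start not shared with a neighbour. Kcnip2, which binds the channels of Kcnd2 and Kcnd3, had 1.93 and 2.54, or 2.23 ± 0.433, and Kcnip4 had 0.172 and 0.265 at different starts, the lowest of all. Of the single-pass Kcne subunits only Kcne3 was open, with 0.430 and 0.441. Kcnmb3 and Kcnmb4, beta subunits of the large calcium-activated channel, had 1.05 and 1.44 and 0.888 and 1.07.

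Of the 15 inward rectifiers, which pass potassium best near the resting potential, 6 were open in animal 1 and 7 in animal 2, and the 6 open in both had a median of 1.68. Kcnj2, which stabilises the resting potential in heart muscle and also in macrophages, had 3.37 and 3.89, or 3.63 ± 0.370, with 6 footprints in each animal. Kcnj1, known as a channel of the kidney tubule, had 2.74 and 2.11, or 2.43 ± 0.447, and its peak was intronic, 866 and 846 bp from the nearest TSS. Kcnj11, the pore of ATP-sensitive channels in pancreas and heart, had 1.30 and 2.27, or 1.79 ± 0.686. Kcnj10 had 1.10 and 2.04, Kcnj16 had 1.02 and 0.876, and Kcnj8, the ATP-sensitive channel of vessel walls, had 0.537 and 0.774.

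Among the two-pore background channels 7 of 14 were open in both, with a median of 2.02. After Kcnk5 came Kcnk10, a mechanosensitive channel, with 3.91 and 4.49, or 4.20 ± 0.413, although the strongest peak was at a different start in each animal. Kcnk13, known from microglia, had 2.49 and 3.12, or 2.81 ± 0.446, and its peaks held 6 and 8 footprints. Kcnk2 had 2.08 and 1.96, Kcnk6 had 1.22 and 1.45, and Kcnk3 had 0.688 and 1.20. Kcnk12 had 0.329 and 0.794, the widest relative gap between the animals of any member. Of the 8 channels activated by calcium or sodium, Kcnn4, Kcnn3 and Kcnn2 were open in both, with Kcnn3 at 1.03 and 0.937 and Kcnn2 at 0.272 and 0.401. Kcnn2 and Kcnn3 encode small-conductance channels, which like that of Kcnn4 sense calcium through calmodulin.

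Peaks of the beta subunit Kcnab3 and of Kcnj2 are printed in the same way, as the clearest unshared promoters outside the lymphocyte list. Kcnab3 is shown at chr11:69326141-69326257 and Kcnj2 at chr11:111065981-111066163, both on the plus strand and both ending at the base before the first TSS, with capitals for bases in footprints of both animals.
Kcnab3: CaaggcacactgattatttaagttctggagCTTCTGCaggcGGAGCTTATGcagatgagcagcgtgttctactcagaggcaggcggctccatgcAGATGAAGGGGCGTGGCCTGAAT
Kcnj2: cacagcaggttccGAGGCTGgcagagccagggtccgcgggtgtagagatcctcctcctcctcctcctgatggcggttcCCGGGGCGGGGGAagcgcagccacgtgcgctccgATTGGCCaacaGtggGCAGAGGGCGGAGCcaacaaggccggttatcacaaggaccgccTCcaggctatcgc

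In Kcnab3, 41 of 117 bases were in footprints of both animals, and the last stretch of capitals runs up to the start. In Kcnj2, 44 of 183 bases were. The GC box GGGCGGGG of Kcnj2 at bases 82 to 89 was wholly inside such a footprint. An inverted CCAAT match, CCGATTGG at bases 110 to 117, had 5 of its 8 letters inside one.

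Genes of the neuronal list, which also holds accessory subunits such as Kcnab2, were open less often than those of the lymphocyte list. Genes of the cardiac list lay between. Of 24 neuronal channel genes, 8 were open in animal 1, 11 in animal 2 and 7 in both, or 29.2%. Of 11 cardiac channel genes, 6, 7 and 5 were, or 45.5% in both. The remaining 56 members had 24 open in both, or 42.9%. Among the neuronal genes without a promoter peak in either animal were Kcna1, Kcna4, Kcnc2, Kcnd2, Kcnip1, Kcnj3, Kcnj6, Kcnj9, Kcnk9, Kcnt1 and Kcnv1. They include subunits of the G protein-gated channels and of the somatodendritic A-type current. Cardiac genes without one were Kcne1, Kcnj5 and Kcnj12.

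The open neuronal and cardiac genes were not all low. The 7 neuronal genes open in both had a median mean height of 3.16, led by Kcnab2, with Kcnf1, Kcnn2 and Kcnip4 under 1. The 5 cardiac genes had 1.79, from Kcnj2, Kcnip2 and Kcnj11 down to Kcnk3 and Kcnh2. Kcnh2, the channel of rapid cardiac repolarisation, had 0.573 and 0.910, or 0.741 ± 0.238. The 3 lymphocyte genes had 4.12, and Kcnn4 was lower than Kcnj2 and Kcnc1 in both animals. No cardiac channel gene was as high as Kcna3 or Kcnk5 in either animal, whereas the shared peak of Kcnab2 in the neuronal list was higher than those of all 3 lymphocyte channels. With 3 genes in the lymphocyte list, shares between the lists are descriptions only.

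**Figure D3:**
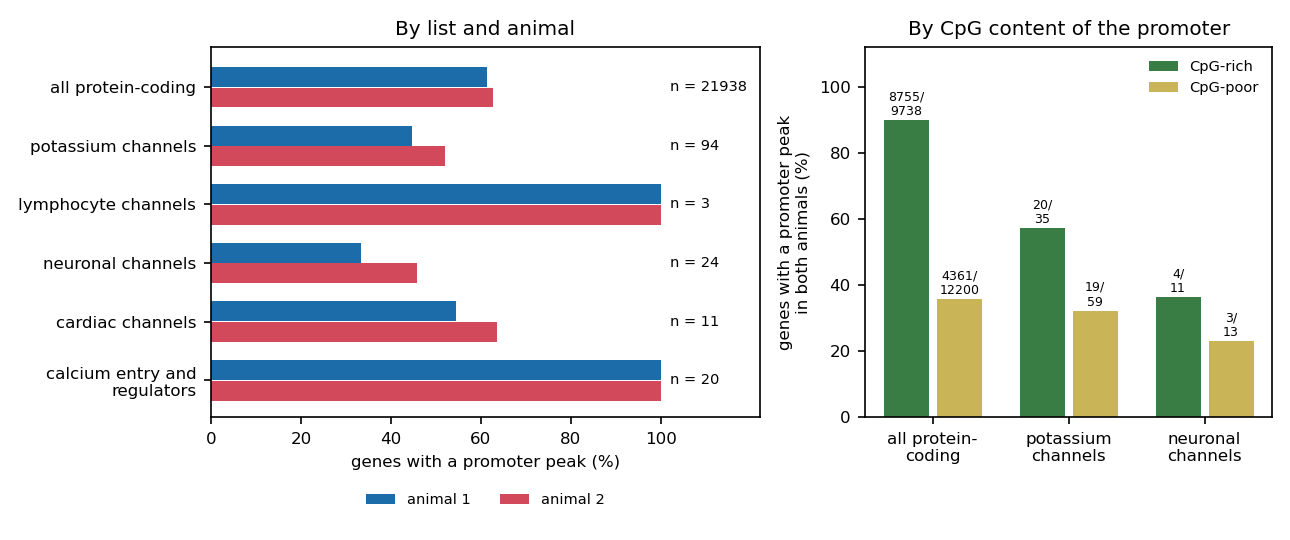
Left, the share of genes with a promoter peak in animal 1 (blue) and animal 2 (red) for all protein-coding genes, the potassium channel genes and the lists of channels, with the number of genes; right, the share open in both animals for CpG-rich (green) and CpG-poor (yellow) promoters, with counts over the bars. The neuronal channels have the lowest shares on the left, and on the right the CpG-rich potassium channel promoters stand at 57.1%, below the 89.9% of all CpG-rich promoters.

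Genes that work beside these channels were open throughout. The list held 20 genes of calcium entry and of channel regulation, and was chosen with earlier results of these data known. Each of the 20 was open in animal 1 and in animal 2, where 61.4% and 62.6% of all genes were. Their median mean height was 8.12, against 6.42 over all genes open in both. The store-operated calcium channel Orai1 had 14.8 and 14.3, or 14.5 ± 0.348, and its sensor Stim1 in the endoplasmic reticulum had 10.4 and 13.9, or 12.1 ± 2.51. Their relatives Stim2, Orai2 and Orai3 had 10.2 ± 1.01, 8.76 ± 2.39 and 7.04 ± 0.616. The calcium release channel Itpr1 had a mean height of 15.4, and Itpr2 and Itpr3 had means of 9.20 ± 1.09 and 7.48 ± 1.60. All of these were higher than the promoter peaks of Kcna3, Kcnn4 and Kcnk5 in both animals.

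The highest of the list was the volume-regulated anion channel gene Lrrc8a with 21.4 and 24.1, or 22.8 ± 1.93. Genes of a known switch for the Kcnn4 channel, which phosphorylates and dephosphorylates a histidine in its tail, were also open. Its kinase Nme2 had 11.2 ± 2.80 and its phosphatase Phpt1 11.3 ± 0.543, a peak shared with a neighbouring gene. Pik3c2b, Mtmr6 and Trim27, which act on the same switch, had 3.19 ± 0.678, 9.27 ± 0.591 and 5.43 ± 0.827. The cation channels Trpm7 and Trpm4 had 6.47 ± 1.30 and 5.16 ± 0.574, and the proton channel Hvcn1, which B cells express, had 5.35 ± 0.0540. Dlg1, a scaffold for Kcna3, had 4.43 ± 1.13, and the ATP-gated channels P2rx4 and P2rx7 had 6.71 ± 0.880 and 1.68 ± 0.0932, the latter the lowest of the list.

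CpG content was looked at because vertebrate CpG-rich promoters are usually open in many tissues; the split was chosen after the heights were seen. A promoter was called CpG-rich where the 500 bp on each side of the most 5′ TSS had an observed-to-expected CpG ratio of at least 0.6 and a GC content of at least 50%. Of all genes with such promoters, 8755 of 9738 were open in both animals, or 89.9%, with a median mean height of 8.10. Of the members, 20 of 35 were, or 57.1%, with a median of 1.83. Among neuronal members 4 of 11 were, or 36.4%. Kcna3 and Kcnk5 were CpG-rich, and Kcnn4 was CpG-poor. Among CpG-poor promoters, 19 of 59 members were open in both animals, or 32.2%, against 35.7% of all genes, and their median mean height was 1.24 against 3.45. CpG-rich members with no peak in either animal included Kcnc4, Kcnd2, Kcnh8, Kcnj12, Kcnj6, Kcnk15, Kcnk9 and Kcnt1.

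Letters of the REST element were found in several promoter peaks of members. REST is a repressor that keeps many neuronal genes off outside the nervous system, and the left part of its element was searched as TTCAGCACC on both strands. In the 200 bp window centred on the strongest promoter peak, 4 of 42 open members of animal 1 and 4 of 49 of animal 2 held it, or 9.52% and 8.16%, against 0.572% and 0.583% of all open genes in windows of the same length. The members were Kcnc1, Kcnh6, Kcnk3 and Kcns2 in both animals, and the match overlapped a footprint in both animals in each of them. The search was then widened to the 1 kb on each side of any TSS, a step chosen after the first result was seen. It held the letters in 11 members, or 11.7%, against 5.99% of all genes. Of the 11 sites, 5 were in a peak in both animals and 4 in a footprint in both, against 8.71% and 4.54% of the 1321 sites of all genes.

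Those sites are printed with 5 bases before the match and 13 after it, on the strand of the match, with the matched letters in capitals. Kcnc1 lies at chr7:46396839-46396865, Kcnh6 at chr11:106007957-106007983, Kcnk3 at chr5:30588093-30588119 on the minus strand, Kcns2 at chr15:34837447-34837473 and Kcnh4 at chr11:100759006-100759032 on the minus strand, the others on the plus strand. Kcnh4 is shown because it was the single member with the longer element, TTCAGCACC followed by GGACAG after 2 bases, both parts of which are in capitals.
Kcnc1: gtcccTTCAGCACCgccgcggaagcct
Kcnh6: cttatTTCAGCACCacgacgcggacag
Kcnk3: gtcccTTCAGCACCacccaccaccctc
Kcns2: gtccgTTCAGCACCaccgcgcagcacc
Kcnh4: cgaagTTCAGCACCctGGACAGccgca

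The longer element occurred within 1 kb of a TSS in 40 genes in all, or 0.182%. At Kcnh4 it lay 721 bp from the nearest TSS, away from the main promoter peak, and was covered by a separate peak of 0.862 and a footprint in animal 2 only. The remaining sites, those near Kcng3, Kcnh3, Kcnh5 and Kcnk9 among them, were in no footprint of both animals. Among distal peaks of members the letters were in 3 of 477 windows in animal 1, or 0.629%, and in 2 of 468 in animal 2, or 0.427%, against 0.400% and 0.437% of all distal windows. A match is a description of letters and shows no binding by REST.

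Other letters differed from motif to motif in how their shares compared with those of all open genes. The ETS letters CCGGAAGT were in none of the members' windows, against 7.55% and 7.71% of all open genes. The letters of NRF1 were in 2.38% and none, against 10.2% in each animal. The GC box GGGCGGGG was in 28.6% and 22.4%, against 30.0% and 30.5%, and the CCAAT letters CCAATNNG were in 14.3% in each animal, against 16.8% and 16.5%. The KLF letters GGGTGTGG were in 2.38% and 2.04% of open members, in each animal at Kcnn4 alone, against 2.72% and 2.66% of all open genes. The AP-1 letters TGANTCA were in 7.14% and 4.08% of open members, against 2.70% and 2.46%, with Kcnn4 and Kcnk2 in both animals and Kcnip4 in animal 1. The letters of EBF, a B cell factor, were in 4.76% and 2.04%, against 0.779% and 0.721%, with Kcnh3 in both animals and Kcnq1 in animal 1. The KLF, AP-1 and EBF shares rest on 1 to 3 members each, and no AP-1 or EBF match in these windows overlapped a footprint. The letters of PU.1, NFAT, CTCF and CRE were in no member's window. Among all open genes they were in 2.83% and 2.73%, 1.79% and 1.72%, 2.50% and 2.61%, and 3.68% and 3.53%. Those of RUNX and of IRF were each in 2.38% and 2.04% of open members, against 2.53% and 2.29% for RUNX and 1.97% and 1.66% for IRF. All 14 sets of letters were searched on both strands, and some share letters, such as the GC box and the KLF letters.

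Footprints were found in most open members. The strongest promoter peak held at least 1 in 35 of 42 and 44 of 49 members, or 83.3% and 89.8%, against 96.5% and 96.7% of all open genes, and the median was 3 in both animals against 4. Open members were also less often kept in the authors' shorter, stricter list, with 78.6% and 73.5% against 93.3% and 91.6%. Peak height was also lower in the members, and its part in these shares was not tested.

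Members were higher in animal 2, as were most genes. Heights were higher in animal 2 for 34 of 39 members, or 87.2%, and for 85.4% of all genes open in both. The median log2 ratio of animal 2 to animal 1 was 0.35 (SD 0.33 over 39 genes), against 0.27 (SD 0.29) over all genes. Kcnk12, with a log2 ratio of 1.27, was the only member more than 2-fold away from the all-gene median ratio, where 0.587% of all genes were. Higher in animal 1 were Kcnj1, with a log2 ratio of -0.38, Kcnj16, Kcnq5, Kcnn3 and Kcnk2. For 5 members, Kcnq5, Kcnmb3, Kcnk10, Kcnh5 and Kcnip4, the strongest peaks of the animals lay at different places. Without them, a check added after the data were seen, 30 of 34 members were higher in animal 2, and the median log2 ratio was 0.34 against 0.27 over all such genes. In the shorter list it was 0.26 against 0.27, and in the higher 50% of peaks 0.27 against 0.26, so the gap to all genes was not present there.

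**Figure D4:**
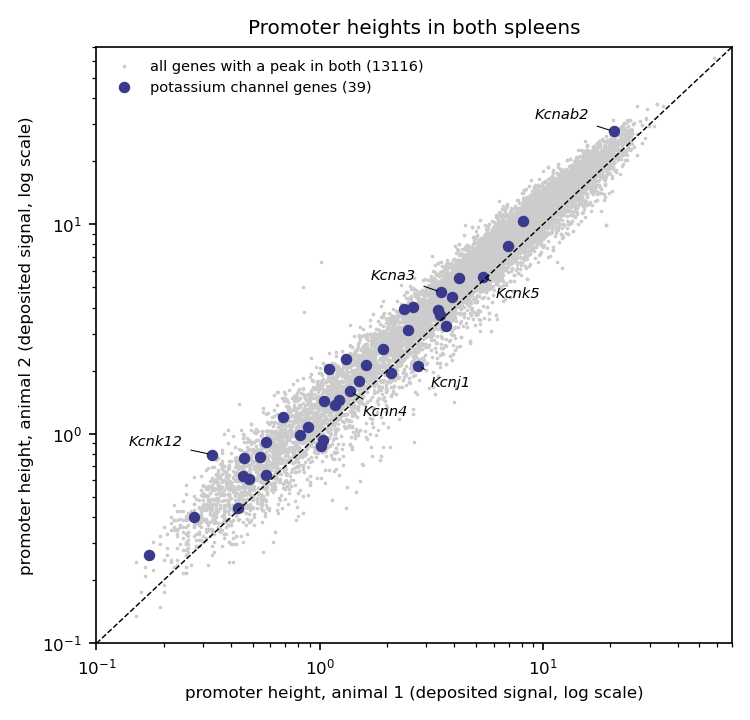
Promoter height in animal 2 against animal 1 (deposited signal, both axes log) for the 13116 genes open in both animals (grey) and the 39 potassium channel genes among them (dark blue), with the line of equal heights dashed. Most points lie above the line, Kcnk12 lies farthest above it among the members and Kcnj1 farthest below.

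The members open in 1 animal had weak peaks, as did genes in general that were open in 1 animal. In animal 1 these were Kcnq1 with 0.380, Kcns3 with 0.265 and Kcna6 with 0.244. In animal 2 they were Kcnn1 with 1.21, Kcna2 with 0.584, Kcnj4 with 0.455, Kcnk1 with 0.435, Kcnd3 with 0.394, Kcnma1 with 0.373, Kcnq3 with 0.360, Kcna5 with 0.319, Kcnh7 with 0.285 and Kcnb2 with 0.278. Kcnq1 and Kcnd3 carry repolarising currents of the heart, and Kcnma1 is the pore of the large calcium-activated channel. None of the 13 was in the shorter list, where 18.5% and 11.3% of all genes open in animal 1 or animal 2 only were. The median heights were 0.265 in animal 1 and 0.384 in animal 2, against 0.372 and 0.387 for all genes of this class. Only Kcnn1 was above 1, and whether the animals differ at these genes was not tested.

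The limit of 1 kb decided few members. Just outside it, with no peak within 1 kb of a TSS in that animal and one within 2 kb, were Kcnj9 with 2.50 and 4.35 at 1688 bp, Kcnh8 with 0.344 and 0.516, Kcnn1 with 2.09 in animal 1, Kcnk4 with 0.666 and Kcnu1 with 0.265 in animal 1, and Kcng1 with 0.543 in animal 2. Just inside it, the strongest peak of Kcnmb3 in animal 2 reached into the window with its midpoint 1130 bp from the TSS, that of Kcnq5 in animal 1 was at 990 bp, and that of Kcnj1 was at 866 bp. Members without a promoter peak were also looked up among the deposited intervals with a false discovery rate under 0.05. In animal 1, 5 of 52 had such an interval within 1 kb, or 9.62%, and in animal 2, 3 of 45, or 6.67%, against 2.65% and 2.87% of all genes without a promoter peak. The lowest rates among these members were 0.0215 and 0.0181.

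Around the members, distal peaks were about as frequent as around other genes. The median was 4.5 in animal 1 and 4 in animal 2, against 5 and 4 over all genes. All but 15 and 19 members had at least 1, where 81.9% and 82.7% of all genes did, and 19 and 21 members had at least 10, where 22.7% and 21.6% of all genes did. Of 477 distinct distal peaks in animal 1, 84.3% were found in animal 2, against 76.5% of all peaks of animal 1. Of 468 in animal 2, 85.5% were found in animal 1, against 79.0% of all peaks of animal 2. The members' distal peaks were also higher, with median heights of 1.05 and 1.38 against 0.888 and 1.05 for all peaks. No such share was computed for the distal peaks of all genes. Of the members' promoter peaks, 86.25% of those of animal 1 were found in animal 2. In the other direction the share was 68.3%, below the 79.0% of all peaks of animal 2. Of the pairs of a member and a distal peak, 28.8% and 31.5% were at the promoter of another gene, a share not computed for all genes. No distal peak in either animal was counted for Kcna1, Kcna4, Kcnb2, Kcnd2, Kcnh7, Kcnj3, Kcnk2, Kcnmb2, Kcns2, Kcnt2, Kcnv1 and Kcnv2. Of these only Kcnk2 and Kcns2 were open in both animals. The strongest promoter peak of Kcnk2 was at an internal start, 158872 and 158862 bp from the most 5′ TSS. Peaks around that start were therefore outside the 50 kb counted.

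The members with the most distal peaks had many of them at the promoters of neighbours. Kcnk4 had 25 and 24, of which 22 and 20 were at the promoters of neighbours, the highest, 28.8 and 32.2, at Esrra. Kcnk7 had 20 in each animal, 16 of them at neighbours, and Kcnj14 had 16 and 17, of which 10 and 13 were. None of these 3 had a promoter peak of its own. Kcnn1 had 20 and 25, and its strongest, 24.2 in animal 1 at chr8:70865541-70865960 and 26.4 in animal 2, was at no protein-coding promoter. Its midpoint was at -2493 and -2473 bp from the most 5′ TSS, with 9 and 10 footprints, while the gene itself had a promoter peak in animal 2 only. Some members are neighbours, so that 1 distal peak can count for both, among them Kcna2 and Kcna3, whose start sites are 64977 bp apart, and Kcnj9 and Kcnj10, which are 11892 bp apart.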

How the data were processed

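Genomic DNA of 2 spleens was profiled by DNase-seq, with 1 library per animal. Per the deposited file listings, the authors aligned each library to mm10 and derived peaks and footprints from each library alone; the aligner and callers are named in no source used here. Each library has 2 peak lists, deposited by the authors with a height, a signal of cut density whose unit is not stated, and the longer was used. The deposited cut-rate intervals carry a false discovery rate, a q-value (p-value column), and list only values under 0.05, while the footprint files hold the constant 0.01 there, so footprints were used by position only. Depth could be inferred only from the step between heights, and Poisson intervals (95%) from it cover counting error only, since reads carry no molecular identifiers.

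TSS were those of GENCODE M21 on GRCm38.p6, and 0 peaks passed a chromosome end on its 21 chromosomes. A gene's height was that of its strongest peak within 1 kb of any TSS, its footprints those with the midpoint in that peak, and distal peaks those with a midpoint between 1 and 50 kb from the most 5′ TSS. A peak at an internal start can therefore count as both. Sequences are RefSeq's assembly of the C57BL/6J reference, not the animals' own alleles.

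No test was run, because there was 1 group of 2 animals, and lists are described by counts and medians beside those of all genes. Members, lists, families and motifs were chosen with earlier results of these data known, and lists of channels by tissue rest on general knowledge. Genes named were the 3 lymphocyte channels, the 15 highest members, members open in 1 animal, neuronal and cardiac members open in both, the 5 with most distal peaks, members at the 1 kb limit, and the calcium entry and regulator list. Other members named complete a family or a count and were chosen after their values were seen. Python 3.11.15 with pandas 2.3.3, numpy 2.4.6, scipy 1.17.1 and matplotlib 3.10.9 was used, and the assignment of peaks to genes was tested on simulated data. Alternatives were the shorter list, the higher 50% of peaks, promoters of 500 bp and 2 kb, the most 5′ TSS alone, an overlap of 50% of the peak, distal limits of 20 and 100 kb, distal peaks at any TSS left out, footprints by any overlap, and each animal alone. A few members that the naming rule covers are not reported here by name, but they are in all counts and medians.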

Additional observations from a re-analysis of the deposited data

How the results depend on the processing

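The count of members open in both animals, 39, was 32 in the shorter list, 37 and 42 with promoters of 500 bp and 2 kb, 32 with the most 5′ TSS alone and 25 in the higher 50% of peaks, where 52.1% of all genes were open. The median height of open members, 1.57, was 1.94 in the shorter list and 2.81 in the higher 50% of peaks, against 6.98 and 7.55 for all genes. With each animal alone, it was 1.20 to 1.21, against 5.62 to 6.63 for all genes. The count was then 42 to 49, where 61.4% to 62.6% of all genes were open. In the higher 50% of peaks, 4 neuronal and 3 cardiac channel genes were open, and with each animal alone 8 to 11 neuronal ones. The 3 lymphocyte channel genes were open under every alternative run. The height at Kcnn4 became 3.002 with promoters of 2 kb, since a stronger peak came within the window. The median number of distal peaks, 4.25 as a mean of the animals, was 1.25 within 20 kb, 10.5 within 100 kb, and 3 both without peaks at any protein-coding TSS and in the shorter list. The values for all genes were 1, 9.5, 2.5 and 3, so that members, below all genes with 4.25 against 4.5, were above them in the first 3 of these settings. The share of open members with a footprint, 86.6%, was 97.0% in the shorter list against 99.0% of all genes. Of the alternative values computed, 74 stayed within the spread or 1.5 times the count and 14 moved. The log2 ratio between animals, 0.35 against 0.27, was 0.26 against 0.27 in the shorter list. With 2 animals and no second condition, the spread is that of these spleens alone. Depth was inferred, not stated, so whether a missing weak peak is below detection was not tested.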

Other observations

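Of 9 pairs of members with start sites within 100 kb, some differed and some did not. Kcna3 was open in both animals, while Kcna2, 64977 bp away, had a peak of 0.584 in animal 2 only and Kcna10, 81910 bp from Kcna2, had none. Kcnj10 was open in both animals and Kcnj9, 11892 bp away, in neither within 1 kb. Kcnj1 was open in both and Kcnj5, 28143 bp away, in neither. Kcnk5 was open in both and the pancreatic channel gene Kcnk16, 87390 bp away, in neither. Kcnj2 and Kcnj16, 98131 bp apart, were both open, with 3.63 ± 0.370 and 0.946 ± 0.0999. Kcne1 and Kcne2, and Kcnip1 and Kcnmb1, were open in neither animal. Kcna1 had no promoter peak, and Kcna6, 94290 bp away, had 0.244 in animal 1 only.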
